A study of Mus musculus with 7 samples.

Results

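The 56 genes examined here are ligands, receptors, extracellular regulators, SMAD proteins, intracellular regulators and targets of TGF-beta and BMP signalling. They were taken from a fixed list of symbols, and all 56 were found in the GENCODE mouse release 21 annotation of GRCm38. A peak was counted at a gene when it carried that gene's symbol in the deposited list, or when it overlapped the gene body or the 5000 bp upstream by at least 1 bp. By this rule 28 of the 8949 peaks in the series lay at 13 of the 56 genes, and the other 43 genes had no peak in any list. The 13 genes are 23.2% of the 56 (95% interval 13 to 36.4), beside 15.9% of 21951 protein-coding genes with a peak in any list.

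TGF-beta and BMP ligands are secreted dimers that bind a pair of type II and type I serine/threonine kinase receptors. The type I receptor phosphorylates SMAD2 and SMAD3 (TGF-beta and activin branch) or SMAD1, SMAD5 and SMAD9 (BMP branch), which join SMAD4 and enter the nucleus. SMAD6 and SMAD7 inhibit the pathway, and secreted proteins such as noggin and chordin keep BMPs from their receptors. In cartilage, BMP signalling drives condensation and chondrocyte differentiation, and TGF-beta signalling through SMAD3 restrains hypertrophic maturation.

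DNA came from ATDC5, a mouse teratoma-derived line of chondroprogenitors kept with ascorbic acid and turned toward chondrocytes by an insulin, transferrin and selenite supplement. The groups used were day 0 chondroprogenitors (5-methylcytosine, 5mC, 1 sample), day 10 cells (5mC, 1 sample) and differentiating cells at day 5 and day 10 (5-hydroxymethylcytosine, 5hmC, 2 samples each, merged before deposit). The labels name no genetic change in any group, and day 0 input DNA was not analysed here. With 1 peak list for each mark and day, there is no spread over replicates and no test between days or marks was made. Intervals are 95% exact intervals (Clopper-Pearson for shares, Poisson for densities), and they cover counting error only. For most counts of 0, the limit that 3 counts would give is printed with the exact upper limit beside it. Days are given here as labelled, while the study's text names partly different ones. Peak lists hold no expression values, so the labelled cell type could not be checked against marker genes.

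The 4 lists held 326 peaks (5mC, day 0), 2401 peaks (5mC, day 10), 2058 peaks (5hmC, day 5) and 4164 peaks (5hmC, day 10). The depth behind them is unknown. No score or fold is given for single peaks. Median peak widths were 736, 1006, 819 and 147 bp in the same order.

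Most peaks at the pathway genes were in the day 10 5hmC list. It had 20 peaks at 9 genes, namely Bmp6, Gdf5, Tgfbr2, Tgfbr3, Acvr1, Ltbp1, Smad3, Smad6 and Smad7. This was 16.1% of the 56 genes (95% interval 7.62 to 28.3), beside 8.31% of 21951 protein-coding genes with a peak by the same rule. The day 5 5hmC list had 3 peaks, 1 each at Bmpr1b, Bmper and Smad3, or 5.36% of the genes (1.12 to 14.9) beside 5.27% of protein-coding genes. The day 10 5mC list had 5 peaks at 4 genes, Tgfbr2, Bmpr1b, Acvr1c and Tgif1, or 7.14% (1.98 to 17.3) beside 6.71%. The day 0 5mC list had a peak at 0 of the 56 genes, which allows a share of up to 5.36% by 3 counts and 6.38% by the exact limit, beside 0.556% of protein-coding genes. The shares for day 5 5hmC and for 5mC on either day were thus near those of all protein-coding genes, and the background of 8.31% lay inside the range from 7.62 to 28.3 for day 10 5hmC.

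**Figure D1:**
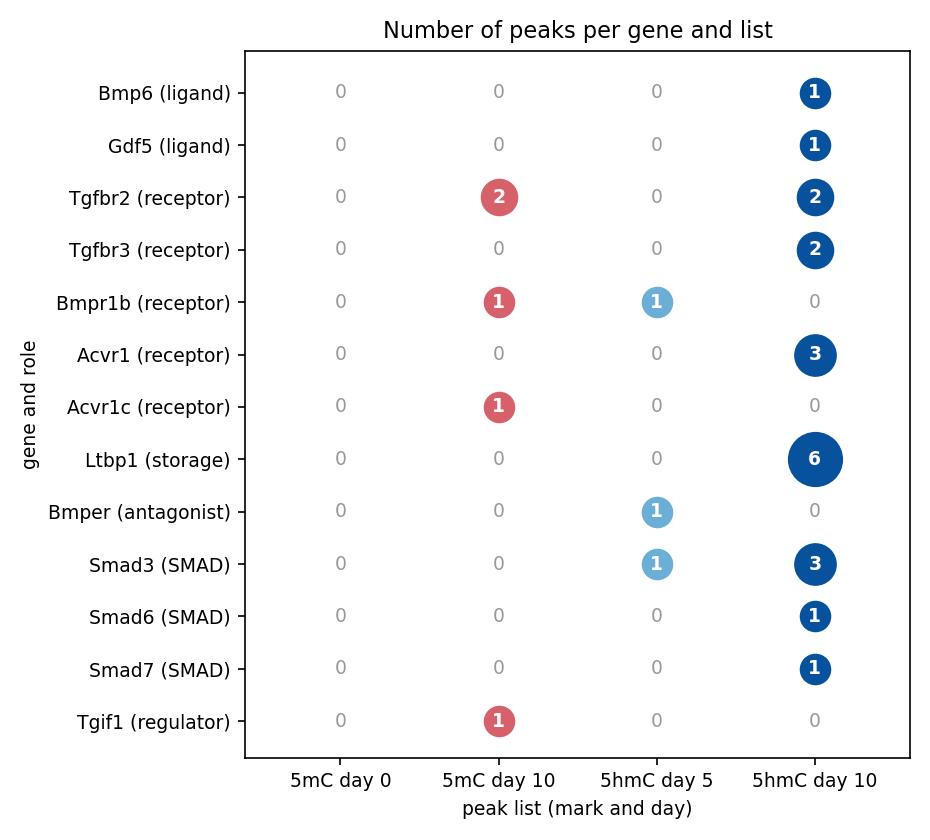
Number of peaks at each of the 13 genes that had any, in each of the 4 peak lists (columns); circle area grows with the number printed in it, and a grey 0 means no peak. The day 10 5hmC column holds 20 of the 28 peaks, 6 of them at Ltbp1, and the day 0 5mC column is empty.

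Gene length bears on these shares, since a long gene offers more sequence in which a peak can fall. The 13 genes with a peak had a median length of 111 kb and the 43 without 32.9 kb, against 17.4 kb for protein-coding genes. Among the 12 pathway genes of at least 100 kb, 5 had a day 10 5hmC peak (41.7%), beside 31.9% of 2492 protein-coding genes of that length. For day 5 5hmC the count was 3 of 12 (25%) beside 18.6%, for day 10 5mC 1 of 12 (8.33%) beside 21.5%, and for day 0 5mC 0 of 12 beside 2.29%. Per length of sequence, the 56 gene windows (4.2 Mb in all) held 4.76 day 10 5hmC peaks per Mb (2.91 to 7.35) beside 2.12 per Mb (2.03 to 2.2) for all protein-coding genes. For members of at least 100 kb, Ltbp1 among them, it was 6.44 per Mb (3.61 to 10.6), beside 2.13 for protein-coding genes of that length. For shorter members it was 2.67 per Mb (0.867 to 6.23), beside 2.1. Without the longest gene, Ltbp1, the density over all lengths was 3.68 per Mb (2.01 to 6.17), an interval that holds 2.12, and neighbouring peaks of 1 gene need not be independent. The 100 kb split and the removal of Ltbp1 were chosen after seeing the data, and no difference was tested. The densities for day 5 5hmC (0.714 per Mb, 0.147 to 2.09) and day 10 5mC (0.952 per Mb, 0.259 to 2.44) held the protein-coding values of 1.1 and 1.48 per Mb in their intervals.

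**Figure D2:**
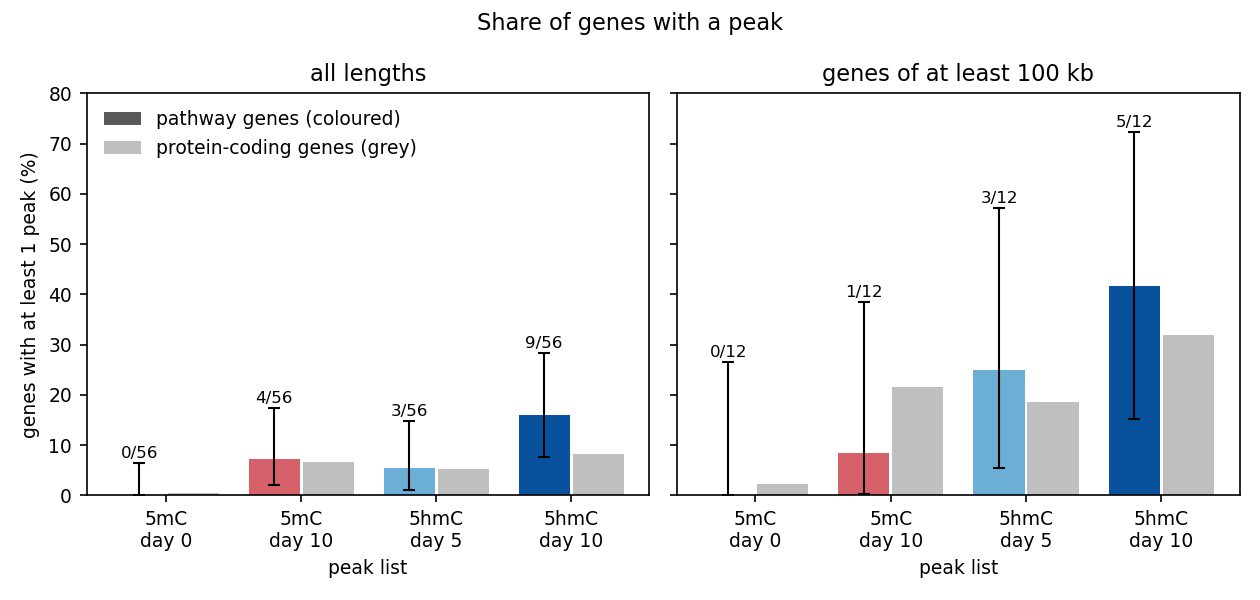
Percent of genes with at least 1 peak in each list, for the pathway genes (coloured bars, error bars are 95% Clopper-Pearson intervals, counts printed above) and for all protein-coding genes (grey), over all lengths (left) and for genes of at least 100 kb (right). At day 10, 5hmC reached 9 of 56 pathway genes beside 8.31% of protein-coding genes, and 5 of 12 long pathway genes beside 31.9%.

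Several peaks often lay in the same gene at day 10. Of the 9 genes with a day 10 5hmC peak, 5 had at least 2 (Tgfbr2, Tgfbr3, Acvr1, Smad3 and Ltbp1), while 26.2% of the 1825 protein-coding genes with such a peak had at least 2. At least 3 were found in 3 of the 9 (Acvr1, Smad3 and Ltbp1), beside 10.1% of the 1825, and all 3 are at least 100 kb long. Among the 12 long pathway genes, 4 had at least 2, beside 13.4% of protein-coding genes of that length, and 3 had at least 3, beside 5.78%. Ltbp1 had 6, a number reached by 22 protein-coding genes in all, the highest of which had 20.

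Of the 14 ligand genes, 2 had a peak, both of day 10 5hmC, beside 15.9% of protein-coding genes with a peak in any list. Bmp6, a BMP ligand made by prehypertrophic and hypertrophic chondrocytes, had a 215 bp peak in intron 1 of 6, 3.4 kb from the gene start, on chromosome 13 from 38348383 to 38348597. It held 5 CpG sites. A day 10 5mC peak with the symbol Txndc5 lay 3661 bp past the end of Bmp6 and was not counted. Gdf5, the growth and differentiation factor of joint formation, had a 110 bp peak upstream of the gene, with its nearer edge 4378 bp from the start. It held 4 CpG sites, or 3.64 per 100 bp, the highest CpG density of the 20 day 10 peaks. Its sequence is shown because it is one of only 2 member peaks of any list that lay upstream of a gene rather than in it, the other being at Smad7. Here and below, sequences are from the RefSeq copy of GRCm38, in lower case with each CpG, where most cytosine modification of mammalian DNA lies, in capitals.
Gdf5 upstream peak, 5hmC day 10, chr2:155949745-155949854, plus strand: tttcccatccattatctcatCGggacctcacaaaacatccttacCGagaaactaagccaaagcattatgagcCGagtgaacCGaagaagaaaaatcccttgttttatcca
The other 12 ligand genes (Tgfb1, Tgfb2, Tgfb3, Bmp2, Bmp3, Bmp4, Bmp5, Bmp7, Gdf6, Gdf10, Inhba and Inhbb) had no peak in any list. Among the closest peaks outside the rule were those of day 5 5hmC, 11298 bp from Tgfb2, 25366 bp from Bmp4 and 28705 bp from Tgfb3, of day 10 5mC, 12536 bp from Tgfb3, and of day 10 5hmC, 39984 bp from Bmp4 and 53050 bp from Bmp2.

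Receptor and co-receptor genes had the most members with a peak, 5 of 12, and these carried 12 of the 28 peaks. They are also long, with a median length of 90.8 kb against 19 kb for the ligand genes, and whether the count differs from that of other genes of such length was not tested. The share of all protein-coding genes with a peak in any list was 15.9%. Tgfbr2, the type II receptor for TGF-beta, was the gene with peaks of both marks at day 10. Its 5hmC peaks lay in intron 2 (199 bp, 3 CpG sites) and intron 6 (113 bp, 1 CpG site) of 7. Its 5mC peaks lay over exon 5 of 8 and over the last exon, in the 3′ untranslated region (on chromosome 9 from 116084450 to 116085517), where the list gives no gene symbol. The exon 5 peak (chromosome 9, 116109347 to 116110509) was 1163 bp wide, covered 800 bases of coding sequence and held 40 CpG sites, or 3.44 per 100 bp. Along the gene the marks alternated, with 5hmC at 36.4 kb, 5mC at 65.4 kb, 5hmC at 76.0 kb and 5mC at 90.4 kb from the start, and the closest pair of different marks was 9881 bp apart. The 5hmC peaks are shown whole beside the middle 300 bp of the coding 5mC peak, so that the CpG sites in each can be seen. The coding peak had the highest CpG density of the 5 member 5mC peaks, and the 5hmC peaks are intronic. The sequences therefore do not compare the marks as such.
Tgfbr2 intron 2, 5hmC day 10, chr9:116138909-116139107, plus strand: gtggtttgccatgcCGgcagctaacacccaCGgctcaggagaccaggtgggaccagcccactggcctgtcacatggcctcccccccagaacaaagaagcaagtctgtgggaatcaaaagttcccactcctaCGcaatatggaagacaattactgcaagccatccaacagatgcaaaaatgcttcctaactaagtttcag
Tgfbr2 exon 5, 5mC day 10, chr9:116109779-116110078, plus strand: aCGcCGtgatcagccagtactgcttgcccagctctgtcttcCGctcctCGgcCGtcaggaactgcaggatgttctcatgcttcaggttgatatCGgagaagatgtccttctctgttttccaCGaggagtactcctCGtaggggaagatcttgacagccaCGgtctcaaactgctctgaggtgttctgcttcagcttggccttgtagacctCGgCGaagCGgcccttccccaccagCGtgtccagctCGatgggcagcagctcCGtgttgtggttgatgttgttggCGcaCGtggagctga
Tgfbr2 intron 6, 5hmC day 10, chr9:116099354-116099466, plus strand: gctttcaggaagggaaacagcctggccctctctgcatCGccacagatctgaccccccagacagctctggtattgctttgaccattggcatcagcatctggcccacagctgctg
The 300 bp of the 5mC peak held 17 CpG sites, and the intronic 5hmC peaks held 3 in 199 bp and 1 in 113 bp. At Bmpr1b the order was the reverse, with 0.893 CpG per 100 bp in the 5mC peak and 1.54 in the day 5 5hmC peak.

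Bmpr1b, a type I BMP receptor needed for digit cartilage, had 1 peak of each mark. The day 5 5hmC peak (chromosome 3, 141857095 to 141857806) overlapped 193 coding bases of exon 8 of 12, and was the only member 5hmC peak of either day to reach an exon. The day 10 5mC peak (chromosome 3, 141874565 to 141875124) was intronic, and 16759 bp separated them. No day 10 5hmC peak lay at the gene, and the nearest was 141346 bp away. The 5mC peak was 560 bp wide with 5 CpG sites, or 0.893 per 100 bp, the lowest density of the 5 member 5mC peaks.

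Acvr1, a type I receptor for BMPs and activins in which mutations cause heterotopic bone formation, had 3 day 10 5hmC peaks. They lay on chromosome 2 in introns 2, 2 and 10 of 11, at 33.7, 45.3 and 110.3 kb from the gene start, and held 5, 5 and 1 CpG sites. Tgfbr3 (betaglycan), a co-receptor that presents TGF-beta to the type II receptor, had 2, in introns 1 and 3 of 16, at 21.4 and 86.2 kb from the start, with 4 and 3 CpG sites. Acvr1c (ALK7), a type I receptor for nodal and activins, had only a 5mC peak (chromosome 2, 58274650 to 58275695), which covered 123 coding bases and 271 untranslated bases of the last exon, exon 9, and 652 bases of the intron before it. It held 32 CpG sites. Tgfbr1, Bmpr1a, Bmpr2, Acvr1b, Acvr2a, Acvr2b and Eng had no peak in any list. At Bmpr1a the nearest 5hmC peaks of the days shared a site, 45057 bp (day 5) and 45276 bp (day 10) from the gene. The day 10 peak lay inside the day 5 peak, and both carried the symbol Ldb3.

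**Figure D3:**
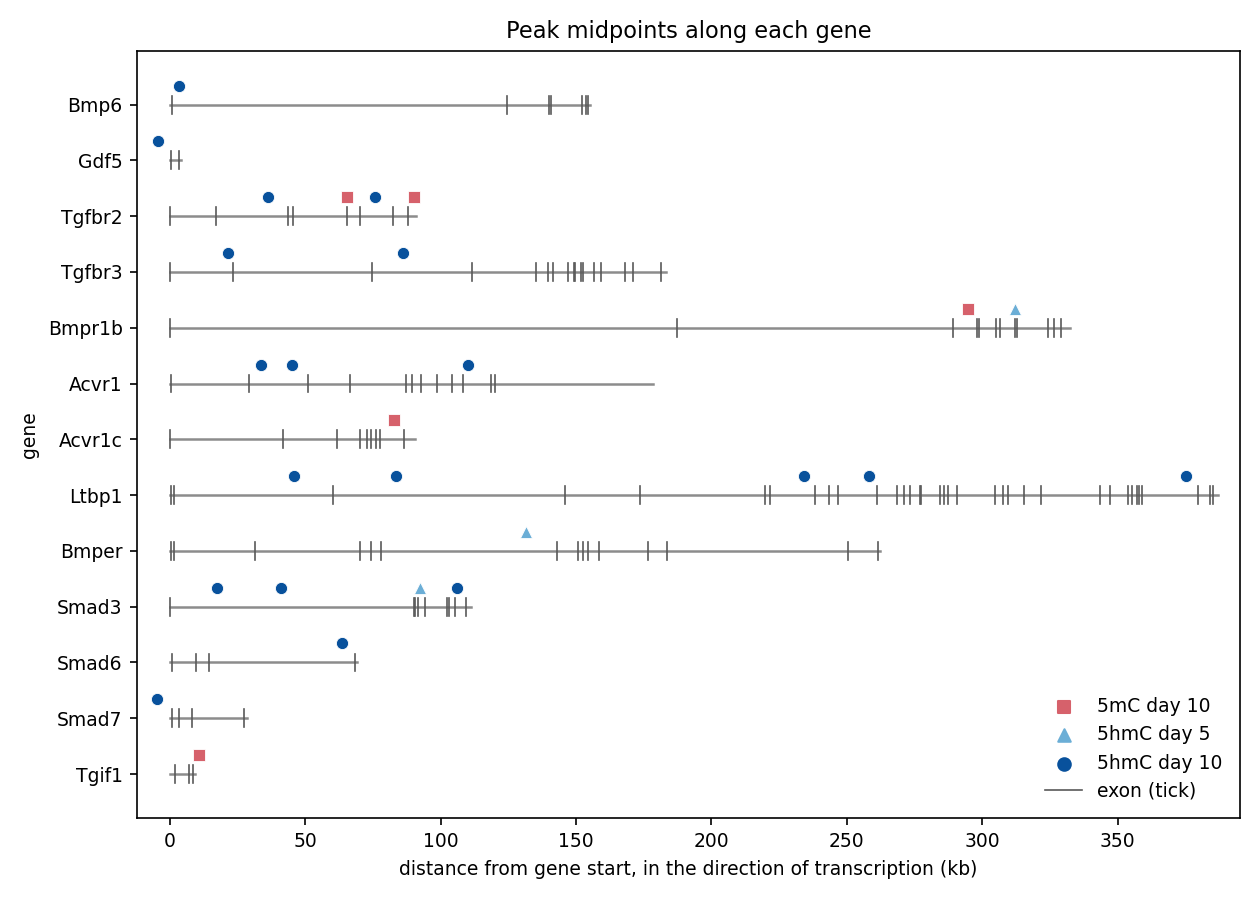
Position of each peak midpoint (symbols) along the 13 genes with a peak, as distance in kb from the gene start in the direction of transcription; grey lines are gene bodies and ticks are exon midpoints of the transcript with the longest coding sequence. The 6 Ltbp1 peaks show as 5 points because 2 of them lie at 258.1 and 258.2 kb, and Gdf5 and Smad7 have their peak upstream, left of 0.

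Ltbp1 encodes a latent TGF-beta binding protein that stores the inactive ligand in the extracellular matrix. At 386.9 kb it was the longest of the 56 genes, and all 6 of its peaks were of day 10 5hmC and intronic. They lay on chromosome 17 in introns 2, 3, 7, 10, 10 and 32 of 34, with widths from 129 to 233 bp. The intron 10 peaks lie side by side, at 258.1 and 258.2 kb from the gene start, and with peaks within 1000 bp merged the 20 day 10 peaks of all member genes become 19. The 6 peaks held 3, 5, 0, 2, 0 and 3 CpG sites, so 2 of them had none. In the whole day 10 5hmC list 6.56% of peaks had no CpG, and in the day 5 list 0.0486%. The neighbouring intron 10 peaks are shown because one has CpG sites and the other has none.
Ltbp1 intron 10, first peak, 5hmC day 10, chr17:75263547-75263731, plus strand: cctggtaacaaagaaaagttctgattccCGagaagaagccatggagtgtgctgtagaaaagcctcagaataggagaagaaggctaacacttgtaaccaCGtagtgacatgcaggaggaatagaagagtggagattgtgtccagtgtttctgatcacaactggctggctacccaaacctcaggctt
Ltbp1 intron 10, second peak, 5hmC day 10, chr17:75263745-75263873, plus strand: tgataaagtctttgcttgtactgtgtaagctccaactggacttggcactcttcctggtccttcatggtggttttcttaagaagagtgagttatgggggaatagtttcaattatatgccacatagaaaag
The intron 7 peak, the other one without CpG, consisted of 65.9% repeat-marked sequence. The nearest day 5 5hmC peak was 3010955 bp from the gene. Ltbp2, Ltbp3, Ltbp4 and Bmp1, the protease that processes procollagen and frees latent ligands, had no peak.

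Among the 6 antagonists and decoys 1 had a peak, beside 15.9% of protein-coding genes with a peak in any list. This was Bmper, which encodes a secreted protein that binds BMPs. Its peak was a day 5 5hmC peak of 767 bp in intron 6 of 14, 131.5 kb into the gene. It held 5 CpG sites (0.652 per 100 bp, the lowest of the 3 member peaks of that day) and an AP-1 string. The nearest day 10 5hmC peak was 163082 bp from the gene. Nog, Chrd, Grem1, Bambi and Fst had no peak. A day 10 5mC peak lay 7616 bp from Fst.

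Of the 8 SMAD genes, 3 had a peak, beside 15.9% of protein-coding genes with a peak in any list. The median length of the 8 genes was 63 kb, against 17.4 kb for protein-coding genes. All 6 peaks at the 3 genes were of 5hmC, and the 5hmC lists together held more peaks than the 5mC lists. Smad3, the signal transducer of TGF-beta, was the only one of the 56 genes with a 5hmC peak on both days. Its day 5 peak (845 bp, 12 CpG sites) lay in intron 4 of 8, 676 bp from the start of a shorter coding transcript. Its 3 day 10 peaks (145 to 325 bp wide, with 4 to 10 CpG sites) lay in introns 1, 1 and 8. None of the day 10 peaks overlapped the day 5 peak, and the closest was 13059 bp away. The middle 300 bp of the day 5 peak and the day 10 peaks (the widest as its middle 300 bp) are given in the order of transcription, since this gene carried the mark on both days at different places.
Smad3 intron 1, first peak, 5hmC day 10, chr9:63740172-63740471, plus strand: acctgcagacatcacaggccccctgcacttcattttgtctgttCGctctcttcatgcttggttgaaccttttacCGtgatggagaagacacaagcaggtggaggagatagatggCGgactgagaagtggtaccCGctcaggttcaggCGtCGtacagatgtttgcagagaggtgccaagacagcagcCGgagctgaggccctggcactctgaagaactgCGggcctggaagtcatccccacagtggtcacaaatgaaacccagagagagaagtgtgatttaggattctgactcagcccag
Smad3 intron 1, second peak, 5hmC day 10, chr9:63716739-63716883, plus strand: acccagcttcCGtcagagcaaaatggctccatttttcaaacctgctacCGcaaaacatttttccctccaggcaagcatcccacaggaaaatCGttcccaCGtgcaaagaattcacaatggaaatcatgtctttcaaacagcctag
Smad3 intron 4, 5hmC day 5, chr9:63665300-63665599, plus strand: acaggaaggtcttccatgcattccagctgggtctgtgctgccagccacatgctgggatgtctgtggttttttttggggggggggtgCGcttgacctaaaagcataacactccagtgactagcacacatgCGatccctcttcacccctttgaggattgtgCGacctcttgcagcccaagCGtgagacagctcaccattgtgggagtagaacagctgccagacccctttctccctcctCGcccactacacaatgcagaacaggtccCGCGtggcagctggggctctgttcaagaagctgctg
Smad3 intron 8, 5hmC day 10, chr9:63651805-63651968, plus strand: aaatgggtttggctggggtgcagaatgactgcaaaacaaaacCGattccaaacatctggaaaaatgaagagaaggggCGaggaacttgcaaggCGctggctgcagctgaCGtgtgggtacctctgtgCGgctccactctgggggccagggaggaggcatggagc
CpG density was 3.08, 2.76 and 3.05 per 100 bp in the whole day 10 peaks, in that order, and 1.42 in the day 5 peak, which was wider.

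The inhibitory SMAD genes both had 1 day 10 5hmC peak. At Smad6 it lay in intron 3 of 3 (chromosome 9, 63958445 to 63958634, 5 CpG sites), 63.5 kb from the start and near the end of the gene. At Smad7 it was a 140 bp upstream peak (chromosome 18, 75362917 to 75363056) with 5 CpG sites, or 3.57 per 100 bp, and its nearer edge was 4473 bp from the gene start. Smad1, Smad5 and Smad9, which carry the BMP signal, had no peak in any list, nor did Smad2 or the shared partner Smad4. The nearest 5hmC peak to any of these was the day 10 peak 55816 bp from Smad5. Absence from a list at these thresholds and at unknown depth does not show that a mark was absent.

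Beside 15.9% of protein-coding genes with a peak in any list, 1 of the 7 intracellular regulators had one, a count near that share. This was a day 10 5mC peak at the corepressor gene Tgif1. It rests on the symbol in the list, since the peak (chromosome 17, 70842242 to 70843256, 14 CpG sites) lay 949 bp past the end of the gene and outside the window used here. The ubiquitin ligase genes Smurf1 and Smurf2, the corepressor genes Ski and Skil, and Zeb1 and Zeb2 had none. Zeb1 and Zeb2 are 183.6 and 133.8 kb long. Bmp5 (124.9 kb), Bmpr2 (115.6 kb) and Smurf2 (100.7 kb) were also without a peak. Of protein-coding genes of at least 100 kb, at most 31.9% had a peak in any single list. The BMP target genes Id1, Id2, Id3 and Id4, which encode inhibitors of basic helix-loop-helix factors, had no peak either, and they are the shortest group, with a median length of 2.8 kb. Outside the windows, a day 5 5hmC peak lay 6033 bp from Id1 and a day 10 5hmC peak 22920 bp from Id4.

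No 5hmC peak was listed at the same place on both days at these genes. Of the 3 peaks of day 5, 0 were shared with day 10, while 29.6% of all day 5 peaks (27.6 to 31.6) did. With 3 peaks the exact 95% interval reaches 70.8%, so no difference was detectable. Seen from day 10, 0 of 20 member peaks met one of day 5 (a share of up to 15% by 3 counts and 16.8% by the exact limit is allowed), beside 17.1% (15.9 to 18.2) of all day 10 peaks. These limits treat the 20 peaks as independent, though they lie at 9 genes and 6 of them at Ltbp1. They therefore do not show a lack of sharing. By gene, 1 of the 3 genes marked at day 5 (33.3%) and 1 of the 9 marked at day 10 (11.1%), Smad3 in each case, had a peak on both days. For protein-coding genes these shares were 48.1% and 30.5%. Likewise 0 of the 20 day 10 5hmC peaks overlapped a day 10 5mC peak (with the same limits), beside 0.696% of the list. At the level of genes, 2 of the 4 with day 10 5mC (Tgfbr2 and Bmpr1b) also had a 5hmC peak on either day, beside 32.7% of protein-coding genes with day 10 5mC.

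The day 10 5hmC peaks at the pathway genes were intronic in 18 of 20 cases (90%) and upstream in 2 (10%), with 0 in exons, which allows up to 15% by 3 counts and 16.8% by the exact limit. For day 10 5hmC peaks at all protein-coding genes, 80.6% were intronic, 7.33% upstream and 12.1% touched an exon. Of the 4 day 10 5mC peaks inside the windows, 3 touched an exon (75%), beside 56.4% for all protein-coding genes. By midpoint the count was 2 of 4, beside 32.9%. None of the 20 day 10 5hmC peaks lay within 1000 bp of a transcript start (up to 15% by 3 counts, 16.8% by the exact limit). For such peaks at all protein-coding genes the share was 12.9%, which lies inside these limits.

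CpG content was measured in whole peaks. At the pathway genes the day 10 5hmC peaks had from 0 to 3.64 CpG sites per 100 bp, with a median of 2.16, and 12 of the 20 were above the list's median of 1.8. The 3 day 5 5hmC peaks had 0.652, 1.42 and 1.54 per 100 bp, all below the list's median of 1.61. In the 200 bp around the midpoint the order turned, with a median of 2.5 beside 2 for the list and 2 of the 3 above it. The 5 day 10 5mC peaks ranged from 0.893 to 3.44 with a median of 2.81, and 3 were above the list's median of 2.42. In 200 bp windows this turned too, with a median of 2.5 beside 3 and 2 of the 5 above it. The lowest day 5 value, at Bmper, was under the 5th percentile of that list (0.749). Median widths at the genes were 162 bp (day 10 5hmC), 767 bp (day 5 5hmC) and 1046 bp (day 10 5mC), beside 147, 819 and 1006 bp in the lists.

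**Figure D4:**
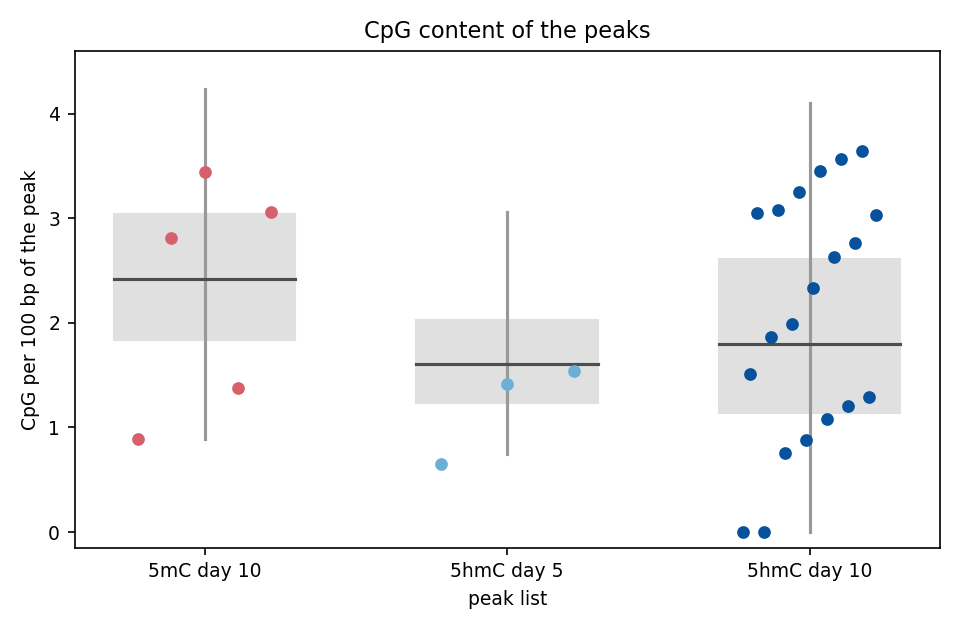
CpG sites per 100 bp of peak for each peak at the pathway genes (points, spread sideways for legibility), with all peaks of the same list as a grey box (25th to 75th percentile), a dark line (median) and a vertical line (5th to 95th percentile). Day 10 5hmC points run from 0 to 3.64 around a list median of 1.8, and the 3 day 5 points lie below 1.61.

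Strings of factors linked to this pathway or to chondrogenesis were sought on either strand in the 200 bp around each peak's midpoint. For SMAD proteins the strings were CAGACA, GTCTAGAC and GGCGCC. They were present in 1 of 3 day 5 5hmC peaks (Smad3) and in 1 of 20 day 10 peaks (Tgfbr2, intron 6, 5%), beside 20.8% and 19.7% of all peaks of these lists. In windows of 400 bp 2 of the 3 day 5 peaks had one (Bmpr1b and Smad3), beside 37.3%, and in whole peaks again 2 of 3, beside 61.2%. At day 10, 5 of the 20 windows of 400 bp (25%) had one, beside 34.9%. AP-1 (TGACTCA or TGAGTCA) was present in 2 of 3 day 5 peaks, at Bmpr1b and Bmper (66.7%, exact interval 9.43 to 99.2), beside 18.7% of the list. In whole day 5 peaks the count was also 2 of 3, beside 43.1%. At day 10 it was present in 0 of 20 windows of 200 bp (up to 15% by 3 counts, 16.8% by the exact limit), beside 9.29%. The 325 bp Smad3 peak held an AP-1 and a SMAD string outside that window. SOX (ACAAAGG or ACAATGG) was present in the Smad3 day 5 peak and in 2 of 20 day 10 peaks, at Acvr1 and Smad3 (10%), beside 7.19% and 6.32%. RUNX (AACCACA) was present in the Smad3 day 5 peak and in 1 day 10 window, at Tgfbr3 (5%), where it lay outside the peak itself, beside 8.26% and 8.69%. NF1 (CTGCCAAG or TTGCCAAG) was present in 1 day 10 window, at Ltbp1 (5%), again outside the peak itself, beside 5.69%. It was present in 0 of 3 day 5 peaks (up to 70.8% by the exact limit), beside 4.62%. In the 200 bp windows each list's share lay inside the 95% interval of the count for its day, and with 3 day 5 peaks those intervals are wide. None of the strings is part of another, though adjoining strings can share bases, and a match is only a match of letters.

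Of 74 other genes of the superfamily and its pathway found in the annotation (76 symbols were listed), 16 had a peak in any list. These are 21.6% of the 74, beside 15.9% of protein-coding genes. By list they were 2 genes for day 0 5mC (2.7%, beside 0.556% of protein-coding genes), 6 for day 10 5mC (8.11%, beside 6.71%), 3 for day 5 5hmC (4.05%, beside 5.27%) and 13 for day 10 5hmC (17.6%, beside 8.31%). Some of the 13 are long, such as Fbn1 (207.4 kb) and Itgb6 (124.4 kb), and others shorter, such as Tab1 (28.6 kb). Among protein-coding genes of at least 100 kb, 31.9% had a day 10 5hmC peak. Whether the share differs from that of other genes of like length was not tested. Fbn1, whose product fibrillin-1 anchors latent TGF-beta complexes in microfibrils, had 4 peaks on each 5hmC day and 1 day 0 5mC peak. A day 10 peak was met by 2 of its 4 day 5 peaks. The day 5 peak of Tab1, an activator of the TGF-beta activated kinase, overlapped 2 of its 3 day 10 peaks. Day 0 5mC also lay at Chrdl1, a BMP antagonist. The genes with day 10 5mC included Tll2 and Bmp2k (2 peaks each), Itgb6, Fbn2 and Bmp10. Of these, Tll2, Bmp2k and Itgb6 had a day 10 5hmC peak as well.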

How the data were processed

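Genomic DNA of ATDC5 cells was enriched for 5mC with a methyl-CpG binding complex or for 5hmC by tagging of the base. Per the labels and the methods, the authors trimmed reads with cutadapt, aligned them with BWA to GRCm38 and called peaks with MACS 1.4.2, and the control used is not given in the sources used here. The deposited lists hold coordinates and a gene symbol for part of the peaks, at 3-fold enrichment or more (5mC) or 10-fold or more (5hmC) per the file headers. Such thresholds, the control and the depth set how many peaks are listed and how wide they are. The methods state that peaks were annotated with HOMER, but not that the symbols in these lists came from it. The 5hmC samples of a day were merged into 1 list. The methods state that calling served to find gain or loss between progenitors and chondrocytes, so a list may not hold all sites of a mark.

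Start and end were read as inclusive positions counted from 1. All peaks lay within the GRCm38 chromosome lengths, and 98.2% to 99.6% of peaks with a symbol in the annotation lay within 10000 bp of that gene. Symbols were matched exactly, and 0 peaks carried an older name of a member gene. The background was 21951 protein-coding genes under the same rule. Introns and exons were numbered in the transcript with the longest coding sequence. Alternatives covered assignment, upstream length, overlap, peak width, merging, gene set and window. Gene assignment was tested on simulated peaks. Members and lists were chosen with earlier results of these data known. By the rule for named genes, each member with a peak is named with its counts, and upstream peaks are shown as sequence unless on chromosome 18, which leaves Gdf5, while the other sequences were chosen after the values were seen. Smad7 sequence and the values of 1 other pathway gene are not reported here. Python 3.11.15, scipy 1.17.1 and pysam 0.24.0 were used.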

Additional observations from a re-analysis of the deposited data

How the results depend on the processing

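No paired analysis was possible because each day's 5hmC list pools its numbered samples, and for that reason no replicate could be left out. Of 130 values under other settings, 112 stayed within the limits used (1.5 times for counts, the 95% interval for shares) and 18 moved. Part of the 112 could not move. No day 0 5mC peak lay at a member gene, so stricter settings could not lower those counts. Each 5hmC peak counted at a member gene carries its symbol, so narrower windows or stricter overlap could not lower those counts either. The tally is thus no measure of robustness. Where only peaks at least as wide as the list's median were kept, a stand-in for a stricter threshold, the day 5 5hmC list had 1 member gene with a peak in place of 3, and the day 10 5hmC peaks fell from 20 to 11. By position alone day 10 5mC had 3 member genes in place of 4, as Tgif1 was lost. Shorter upstream windows left the 9 genes with day 10 5hmC as they were because the upstream peaks at Gdf5 and Smad7 also carry the gene's symbol, while the density in windows with 2000 bp upstream was 4.46 peaks per Mb in place of 4.76. The background shares depended on the gene set, with all 55450 annotated genes giving 4.59% for day 10 5hmC, and protein-coding genes of at least 100 kb, chosen after seeing the data, 31.9%. Leaving out Ltbp1 was also chosen after seeing the data. The SMAD strings at day 10 rose from 5% to 25% of peaks in 400 bp windows, and the NF1 and RUNX strings went from 5% to 0% in whole peaks. The median CpG content at day 5 went from 1.42 to 2.5 per 100 bp in 200 bp windows, from below to above the list's median. The cause of these shifts was not tested beyond the longer or shorter sequence searched. With 0 to 20 member peaks per list and 1 list per mark and day, differences between days cannot be told apart from differences between the lists' depth and calling.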
